A study of Mus musculus with 18 samples.

Results

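The transporters described here are 8 genes whose products move organic anions and drugs across the hepatocyte membrane: Slc22a7, Slco1a4, Slco1b2, Slco2b1, Abcc2, Abcc3, Abcc4 and Abcg2. They were chosen by name, and every probe set that the array annotation pairs with exactly 1 of these symbols was taken. This gave 14 of the 45037 probe sets that are not controls, and 8 of the 18193 genes that have a probe set. All 8 were among the 13225 genes left for testing after the dimmest 40% of probe sets had been dropped. Liver RNA of wild-type CD1 mice was measured on 18 Affymetrix arrays, 3 in each of 6 groups. The prevention model began with 1 week of vehicle or of CMPF at 6 mg/kg/day, after which the mice ate a high-fat diet (HFD, 60% of energy from fat), for 4 weeks by the sample labels and for 4 to 5 weeks by the series. The reversal model began with 6 weeks of HFD, and injections of vehicle or CMPF at that dose followed for 2 weeks. Each model has its own chow group, so the groups are chow, HFD with vehicle, and HFD with CMPF in each model. Whether chow mice were injected, whether HFD went on during the injections and whether the arrays of a group are separate animals is not given in the sources used here, so each p measures the spread between arrays.

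CMPF is a dicarboxylic furan fatty acid metabolite that circulates bound to albumin, and it is known as a uremic toxin that organic anion transporters of the kidney take up. Hepatocytes take organic anions from the blood through exchangers and polypeptides in the sinusoidal membrane. Slc22a7 (Oat2) exchanges small organic anions, and Slco1a4 (Oatp1a4), Slco1b2 (Oatp1b2) and Slco2b1 (Oatp2b1) carry bile acids, steroid conjugates, bilirubin and many drugs. Export uses ATP: Abcc2 (Mrp2) and Abcg2 (Bcrp) pump conjugates and drugs into bile, while Abcc3 (Mrp3) and Abcc4 (Mrp4) return them to blood.

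All values are log2 RMA signals, in which a difference of 1 is a doubling. Array means lay between 5.08 and 5.10 in the prevention model and between 5.25 and 5.26 in the reversal model, so levels were compared within a model only. Replicates 2 and 3 of prevention HFD with CMPF were nearly identical: the SD of their difference over 9008 bright probe sets was 0.119, and the next lowest value among the 153 pairs of arrays was 0.304. They were averaged and counted as 1 sample, which leaves n = 2 for that group and 17 samples in all. Replicate 2 of reversal chow stood apart, with a median correlation of 0.970 with the other arrays of its model. The 3' to 5' index, the excess of 3' over 5' signal of Gapdh and beta-actin control probe sets, was 1.43 ± 0.512 (SD, n = 3) in prevention chow, 2.84 ± 0.303 (n = 3) in prevention HFD and 2.95 ± 0.285 (n = 2) with CMPF; it is higher where RNA is shorter. For the reversal groups the index was 3.15 ± 0.566 in chow, 2.62 ± 0.969 in HFD and 2.63 ± 0.957 with CMPF (n = 3 each). All 7 hepatocyte markers were above background in every group. Of 5 bile duct markers on the array, Krt7, Krt19, Sox9 and Cftr were not.

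Of the 8 transporters, 7 were well measured in liver. A probe set was called well measured where its mean in each of the 6 groups lay above the 95th percentile of 80 probe sets for olfactory and vomeronasal receptors, genes that liver is not known to express. That percentile lay between 4.71 and 4.94 over the groups. The 4 uptake genes Slc22a7, Slco1a4, Slco1b2 and Slco2b1 and the exporters Abcc2, Abcc3 and Abcg2 passed in every group. Slc22a7 ranged from 8.31 to 10.62 over the 17 samples, Slco1a4 from 7.63 to 10.05 and Slco1b2 from 12.25 to 13.01. Slco2b1 ranged from 9.70 to 10.45, Abcc2 from 9.53 to 11.01, Abcc3 from 9.51 to 10.61 and Abcg2 from 9.47 to 11.24. These ranges pool both models, whose array means differ, so they are not a measure of movement within a model; they do not order the genes either, because probe sets differ in their response. Abcc4, which is known to be low in healthy liver, ranged from 3.81 to 5.11 and was above the receptor percentile in 2 of the 6 groups, so that its differences are differences near background. Of all 14 probe sets, 11 were well measured, 2 lay near background (that of Abcc4 and 1452569_at of Slco1b2) and 1, 1427825_at of Slco1b2, lay at background. Slc22a8 (Oat3), the kidney carrier that is known to take up CMPF, and its relative Slc22a6 (Oat1) were not well measured in these livers: Slc22a8 ranged from 3.56 to 4.13 and Slc22a6 from 4.54 to 4.87.

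**Figure D1:**
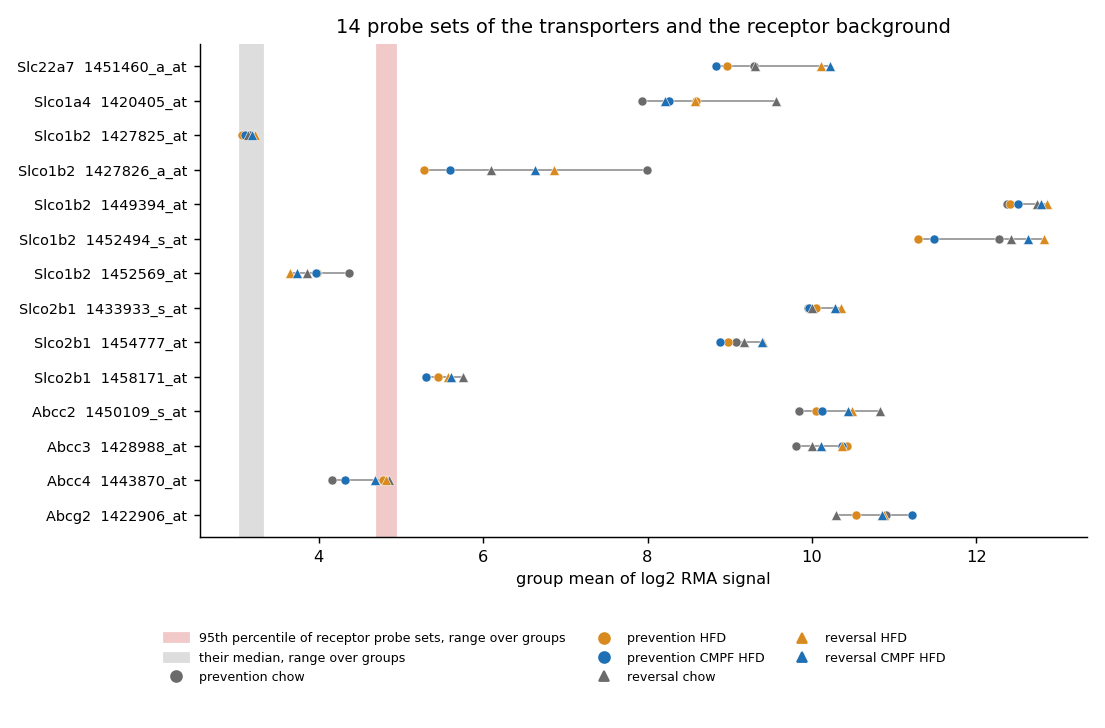
Mean log2 RMA signal of the 14 probe sets of the 8 transporters in each of the 6 groups (points), with bands for the median and the 95th percentile of the receptor probe sets over the groups. The Slco1b2 means by 1449394_at lie between 12.37 and 12.86, above the upper band of 4.71 to 4.94, and the Abcc4 means lie between 4.17 and 4.85, below or inside it.

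Slco1b2 and Slco1a4 lie close together on mouse chromosome 6, with Gm5724 between them, in a cluster that also holds Slco1c1 and Slco1a1. Their signals did not follow each other: Pearson r over the 17 samples, after subtracting each model's mean, was -0.07, given as a description. The 250 bases before the start of each are printed to set the promoters of these neighbours side by side, with motif matches in capitals. They are RefSeq sequences of build GRCm38.p6, chr6:141629268-141629517 on the plus strand for Slco1b2 and chr6:141856221-141856470 on the minus strand for Slco1a4.
Slco1b2: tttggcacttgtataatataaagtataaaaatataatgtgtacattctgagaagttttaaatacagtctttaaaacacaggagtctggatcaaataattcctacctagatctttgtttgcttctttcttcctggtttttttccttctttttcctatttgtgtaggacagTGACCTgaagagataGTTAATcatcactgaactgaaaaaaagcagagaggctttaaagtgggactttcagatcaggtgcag
Slco1a4: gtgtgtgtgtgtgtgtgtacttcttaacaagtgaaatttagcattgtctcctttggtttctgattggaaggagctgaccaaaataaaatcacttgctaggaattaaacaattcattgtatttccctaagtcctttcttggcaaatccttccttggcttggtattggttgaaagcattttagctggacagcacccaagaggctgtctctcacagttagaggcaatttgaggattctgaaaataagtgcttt

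Motifs of known liver regulators were searched on both strands: the nuclear receptor site AGGTCA, the core of the antioxidant response element, TGACNNNGC, and the HNF1 site GTTAAT. The Slco1b2 window holds 2 matches, AGGTCA on the minus strand (printed as TGACCT, from base 170) and GTTAAT from base 185, and it is 33.6% G and C. The Slco1a4 window, 39.2% G and C, holds none of these motifs. The table has 11 windows for 6 of the 8 transporters; AGGTCA was in 4 of them against 14.02% of all 32851 windows, TGACNNNGC in 3 against 10.16% and GTTAAT in 1 against 6.43%. The motifs do not overlap in the Slco1b2 window. A match describes letters only.

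CMPF injection was compared with vehicle on HFD to ask whether an organic anion given to the mice changes the carriers of organic anions. None of the 8 transporters passed the threshold (adjusted p under 0.05, Benjamini-Hochberg over all genes tested) in either model. In the prevention model 0 of 8 were called, beside 0.0% of all 13225 genes. At an unadjusted p under 0.05 there were 2 of 8, beside 7.98% of genes: Abcg2 and Abcc4, the latter near background. The reversal model gave 0 of 8 calls, beside 0.0378% of genes (5 genes); at an unadjusted p under 0.05 there were 0 of 8, beside 4.79%. The median log2 difference of the 8 was -0.08 in the prevention model and -0.08 in the reversal model, against 0.02 and -0.01 for all genes. In bulk tissue, fewer cells of a type and less RNA per cell cannot be told apart. The index was alike with and without CMPF in each model, at 2.95 against 2.84 and at 2.63 against 2.62. The mean of the hepatocyte markers lay at 13.46 to 13.47 with CMPF and 13.34 to 13.42 with vehicle in the prevention model. Means also did not overlap for T and B cell markers in that model (4.42 to 4.45 with CMPF against 4.48 to 4.58). Nor did they for bile duct markers in the reversal model (4.32 to 4.55 against 4.19 to 4.31). Only 1 of 5 T and B cell markers and 1 of 5 bile duct markers were above background in every group, so these means lie near background. The part of these lists was not tested.

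Among the uptake genes, the intervals were narrow for Slco1b2 and Slco2b1 and wide for Slc22a7 and Slco1a4. Slco1b2, a carrier of bilirubin and statins into hepatocytes, read 12.44, 12.25 and 12.52 with vehicle and 12.44, 12.58 and 12.56 with CMPF in the prevention model, where the last pair is the near-identical one. The difference was 0.10 (95% CI -0.15 to 0.35), a fold of 1.07. Under reversal it read 12.71, 12.86 and 13.01 with vehicle and 12.83, 12.73 and 12.79 with CMPF, a difference of -0.08 (CI -0.30 to 0.14). The groups overlapped in both models. Averaged over both models, the difference was 0.01 (CI -0.16 to 0.18), a fold interval of 0.90 to 1.13. These values are those of probe set 1449394_at; the fold interval was 0.796 to 1.27 by 1452494_s_at and 0.493 to 2.14 by 1427826_a_at. Slco2b1, which carries steroid sulfates, differed by -0.09 (CI -0.42 to 0.24) in the prevention model and by -0.08 (CI -0.37 to 0.22) in the reversal model.

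Slco1a4, a carrier of bile acids and cardiac glycosides, read 8.06, 8.49 and 9.21 with vehicle in the prevention model. With CMPF it read 7.63 in replicate 1 and 8.95 and 8.84 in the near-identical pair. The CMPF samples lay on both sides of the vehicle mean, and the difference was -0.32 (CI -1.21 to 0.56). Slco1a4 in the reversal model read 8.84, 8.76 and 8.14 with vehicle and 8.36, 7.91 and 8.34 with CMPF, a difference of -0.37 (CI -1.16 to 0.42), with overlap. Slc22a7 read 8.48, 8.77 and 9.66 with vehicle and 9.36, 8.40 and 8.22 with CMPF in the prevention model, a difference of -0.13 (CI -0.87 to 0.61). Under reversal it read 9.83, 10.62 and 9.87 against 10.36, 9.99 and 10.31, a difference of 0.11 (CI -0.55 to 0.78). As folds, the intervals ran from 0.434 to 1.48 and from 0.446 to 1.33 for Slco1a4, and from 0.545 to 1.52 and from 0.683 to 1.71 for Slc22a7, in the prevention and the reversal model.

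Among the exporters, Abcg2 gave the largest difference in size in the prevention model. Abcg2, which pumps urate and sulfate conjugates into bile, read 10.39, 10.47 and 10.76 with vehicle in the prevention model and 11.20, 11.26 and 11.22 with CMPF. The 2 CMPF samples lay above all vehicle samples, and 30.7% of all genes had such separated groups in this comparison of 2 with 3 samples. The difference was 0.68 ± 0.296 (SE; CI 0.05 to 1.32), a fold of 1.6, with an adjusted p of 0.615. Abcg2 in the reversal model read 10.92, 10.72 and 10.97 with vehicle and 10.80, 10.69 and 11.07 with CMPF, a difference of -0.02 (CI -0.59 to 0.55). The difference between the models was -0.70 ± 0.398 (adjusted p = 0.716), so that the effects were not shown to differ.

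Abcc4, near background, read 4.80, 5.11 and 4.45 with vehicle and 4.03, 4.76 and 4.44 with CMPF in the prevention model, a difference of -0.47 ± 0.218 (adjusted p = 0.625). It was -0.18 without CMPF replicate 1 and -0.75 without the near-identical pair. It differed by -0.13 (CI -0.54 to 0.29) in the reversal model. Abcc2, the canalicular pump for bilirubin conjugates, differed by 0.08 (CI -0.58 to 0.73) and by -0.05 (CI -0.63 to 0.54). Abcc3, which sends glucuronides back to the blood, differed by -0.07 (CI -0.47 to 0.33) in the prevention model. Under reversal it read 10.58, 10.23 and 10.28 with vehicle and 10.20, 10.11 and 10.03 with CMPF. All 3 CMPF samples lay below the vehicle samples, as was so in one or the other direction for 8.81% of genes, and the difference was -0.25 ± 0.168 (adjusted p = 0.9999). Over the mean of both models, 0 of 8 were called, beside 0.0% of genes, and 0 of 8 had an unadjusted p under 0.05, beside 5.19%.

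**Figure D2:**
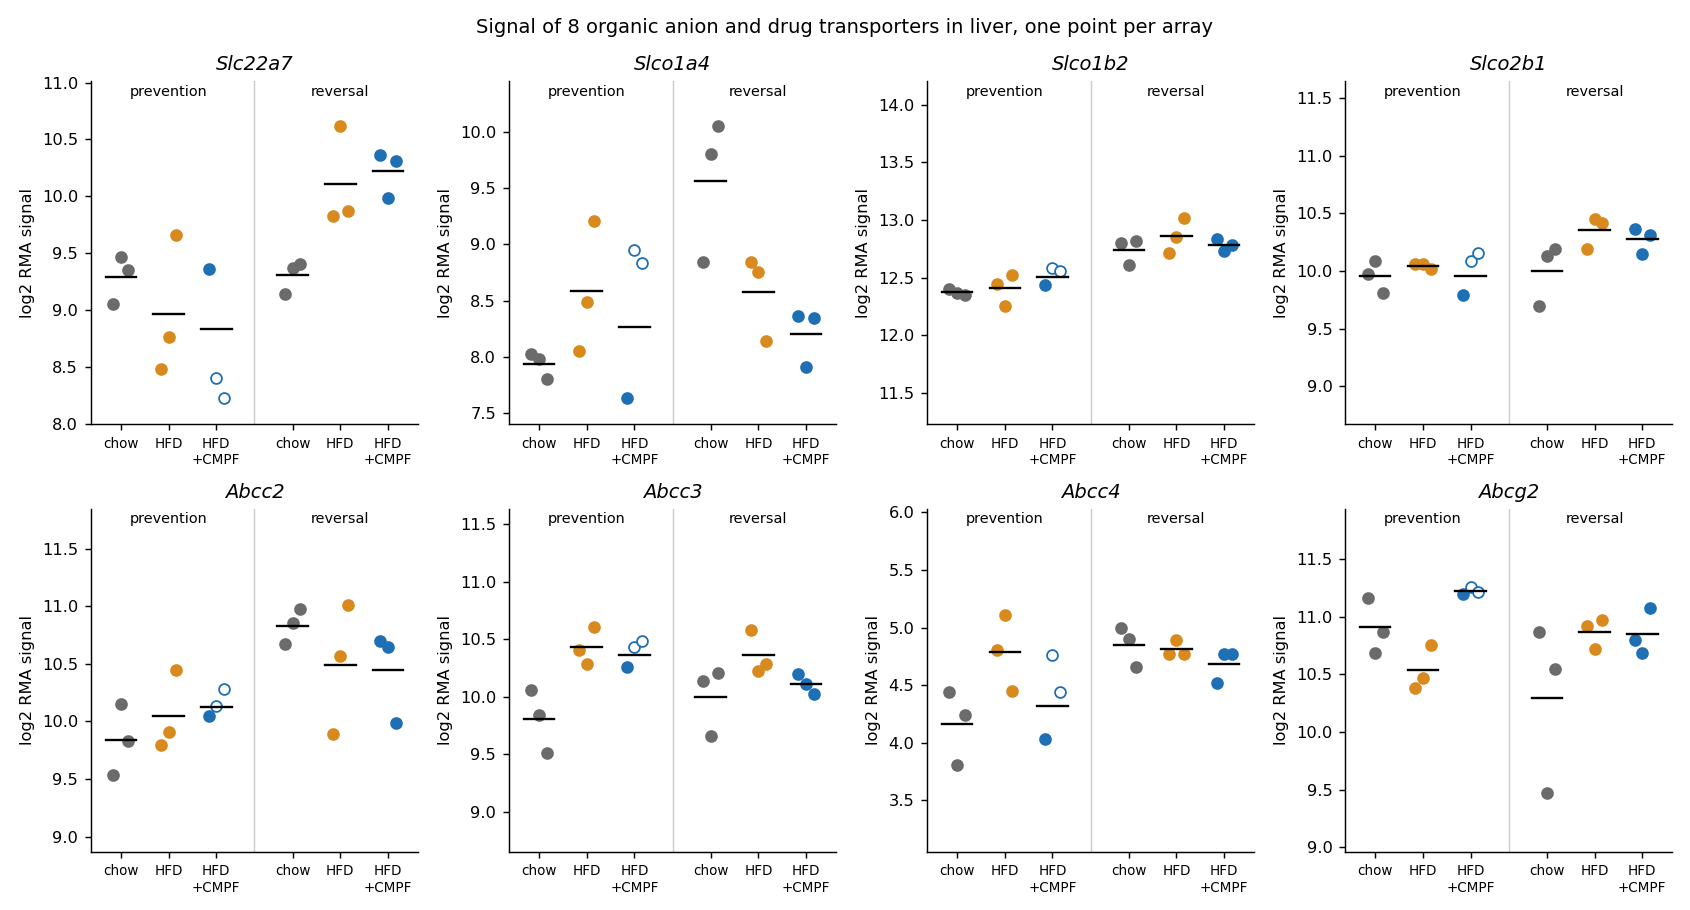
Log2 RMA signal of the 8 transporters, each by the probe set with the highest mean, with 1 point per array, open points for the near-identical pair and a line at the group mean. Abcg2 in prevention HFD lies at 10.39 to 10.76 and with CMPF at 11.20 to 11.26, and Slco1a4 in reversal chow lies at 8.84 to 10.05; all panels span the same range of log2 signal.

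**Figure D3:**
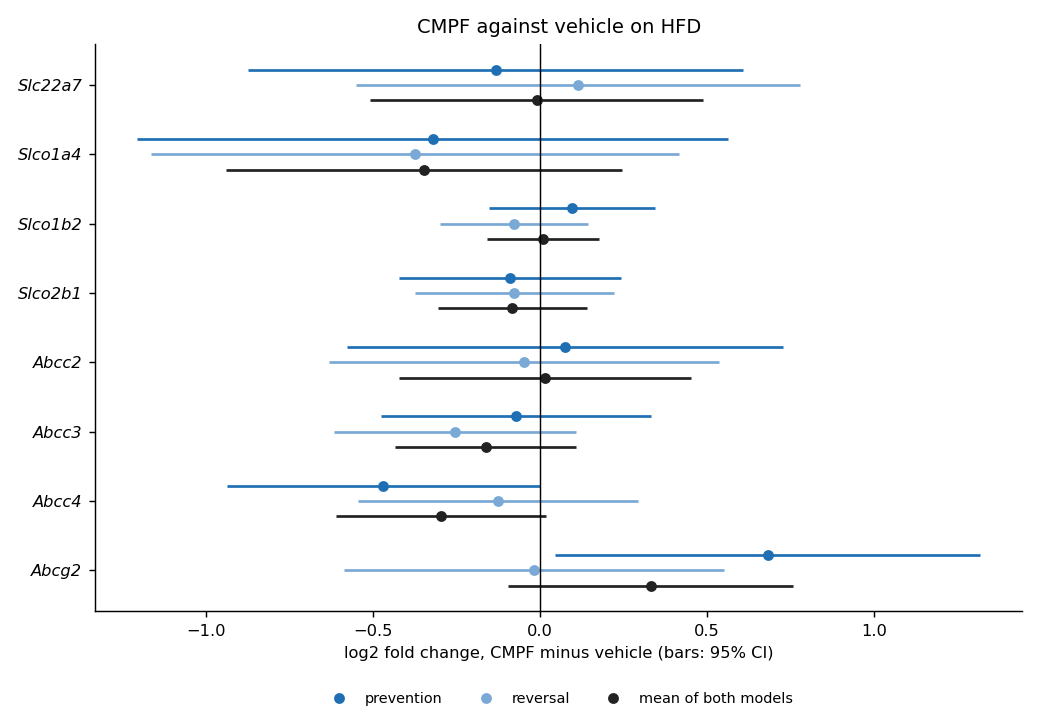
Log2 fold change of each transporter, CMPF minus vehicle on HFD, with bars for the 95% confidence interval, in the prevention model (n = 2 against 3), the reversal model (n = 3 against 3) and the mean of both models. The interval of Abcg2 in the prevention model, 0.05 to 1.32, lies above 0, and its adjusted p is 0.615. That of Abcc4, near background, runs there from -0.94 to -8.9e-05, with an adjusted p of 0.625. The intervals of Slco1b2 are the narrowest of the 8.

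HFD was compared with chow for the background effect of the diet on these genes. In the prevention model 1 of 8 passed, beside 5.57% of genes: Abcc3 rose from 9.80 ± 0.278 to 10.43 ± 0.166 (SD, n = 3 each). It read 10.06, 9.84 and 9.51 on chow and 10.41, 10.28 and 10.61 on HFD, with every HFD sample above every chow sample. The change was 0.63 ± 0.168 (SE), a fold of 1.55, with an adjusted p of 0.0452. The index also differed between these groups, from 0.968 to 1.98 on chow and from 2.66 to 3.19 on HFD; with the index in the model, the Abcc3 change was 0.68 ± 0.215 with an adjusted p of 0.218. The call was also lost without chow replicate 1 (adjusted p = 0.0831) or 3 (0.204), and without HFD replicate 1 (0.108), 2 (0.0712) or 3 (0.138). With the replicate number as a block it was lost too (0.0642). Without single arrays the Abcc3 change ranged from 0.48 to 0.76. In the settings named here that lost the call, calls over all genes also fell from 736. They numbered 17 with the index, 12 and 8 without chow replicate 1 or 3, and 599 with the block. Without HFD replicate 1, 2 or 3 they numbered 25, 112 and 242.

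The other exporters did not pass in the prevention model. Abcc4 read 4.44, 3.81 and 4.25 on chow and 4.80, 5.11 and 4.45 on HFD, a difference of 0.62 ± 0.195 (adjusted p = 0.0757), with groups that nearly meet and do not overlap. Abcg2 differed by -0.37 (CI -0.94 to 0.20) and Abcc2 by 0.21 (CI -0.37 to 0.80). Of the uptake genes, Slco1a4 read 8.02, 7.98 and 7.81 on chow and 8.06, 8.49 and 9.21 on HFD. Its HFD samples were all higher, but they spread from 8.06 to 9.21, and the difference of 0.65 ± 0.368 did not pass (adjusted p = 0.296). Groups did not overlap for 3 of the 8 transporters (Abcc3, Abcc4 and Slco1a4), beside 29.2% of all genes. Slc22a7 differed by -0.32 (CI -0.99 to 0.34), Slco2b1 by 0.09 (CI -0.21 to 0.39) and Slco1b2, by its brightest probe set, by 0.03 (CI -0.19 to 0.26). Of 12 lists of cell type markers, the mean signal of 5 did not overlap between these groups. The mean of the 7 hepatocyte markers lay at 13.51 to 13.64 on chow and 13.34 to 13.42 on HFD. That of 2 exocrine pancreas markers, of which 1 was above background in every group, lay at 7.08 to 8.54 and 6.57 to 7.06. Higher on HFD were the means of 6 endothelial markers (6.31 to 6.88 against 6.94 to 7.07), of 2 neutrophil markers (4.53 to 5.35 against 5.40 to 6.71) and of 5 bile duct markers (3.90 to 4.04 against 4.08 to 4.15), of which 4 endothelial, 1 neutrophil and 1 bile duct marker were above background in every group. Of 5 tested endothelial markers 1 was called, beside 5.57% of genes: Stab2, a scavenger receptor of the liver sinusoid. It differed by 0.52 ± 0.142 (adjusted p = 0.0491, and 0.449 with the index in the model). The call was lost under 12 of 18 alternatives. The median difference of the 5 was 0.13. The part of these markers in the transporter differences was not tested.

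The reversal model gave 0 of 8 calls, beside 2.45% of genes (324 genes), and 5 of 8 had an unadjusted p under 0.05, beside 22.4%. Slco1a4 read 8.84, 9.81 and 10.05 on chow and 8.84, 8.76 and 8.14 on HFD, a difference of -0.99 ± 0.368 (adjusted p = 0.149). Chow replicate 1 lay with the HFD arrays, and chow replicates 2 and 3 lay apart and high. Slc22a7 read 9.14, 9.37 and 9.40 on chow and 9.83, 10.62 and 9.87 on HFD; every HFD sample was higher, and the difference was 0.80 ± 0.309 (adjusted p = 0.159). Abcg2 read 10.86, 9.47 and 10.54 on chow, where replicate 2 is the array that stands apart, and 10.92, 10.72 and 10.97 on HFD, a difference of 0.58 ± 0.265 (adjusted p = 0.216). Without that chow array the Abcg2 difference was 0.17 (adjusted p = 0.666). Abcc3 differed by 0.36 ± 0.168 (adjusted p = 0.220) and Slco2b1 by 0.35 ± 0.139 (adjusted p = 0.168). Abcc2 differed by -0.34 (CI -0.93 to 0.24), Slco1b2 by 0.12 (CI -0.10 to 0.34) and Abcc4 by -0.04 (CI -0.46 to 0.38). Groups did not overlap for 3 of 8 (Slc22a7, Abcc3 and Slco2b1), beside 23.3% of genes. Of the 12 marker lists, 3 did not overlap in their means. Kupffer cell and monocyte markers lay at 5.79 to 6.41 on chow and 6.43 to 7.34 on HFD. Red cell markers lay at 5.95 to 6.19 and 6.27 to 6.71, and intestine markers at 5.01 to 5.28 and 4.45 to 4.82. In that order, 4 of 6, 1 of 2 and 1 of 4 markers on the array were above background in every group. The part of these lists was not tested.

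**Figure D4:**
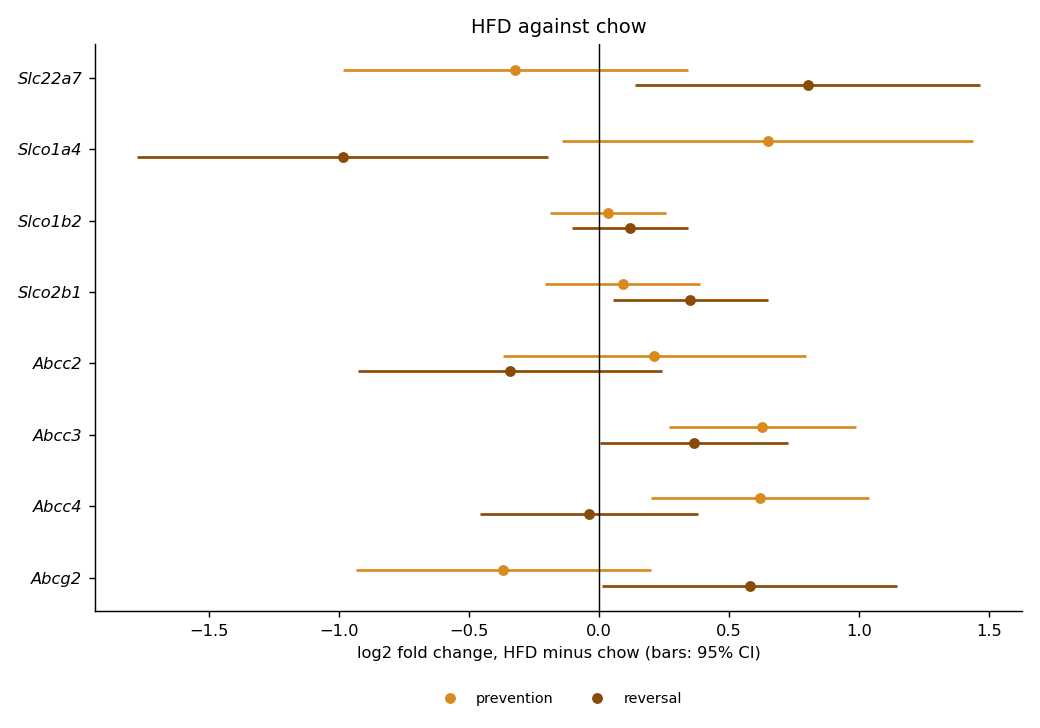
Log2 fold change of each transporter, HFD minus chow, with bars for the 95% confidence interval, in the prevention and the reversal model (n = 3 per group). Abcc3 in the prevention model, at 0.63, is the one that passed the threshold, and Slco1a4 lies at 0.65 in the prevention and at -0.99 in the reversal model.

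The HFD effect was compared between models directly. None of the 8 passed, beside 11.0% of genes, and 4 of 8 had an unadjusted p under 0.05, beside 31.0%. The difference, reversal minus prevention, was -1.63 ± 0.521 for Slco1a4 (adjusted p = 0.0568), 1.13 ± 0.437 for Slc22a7 (0.101), 0.95 ± 0.375 for Abcg2 (0.106) and -0.66 ± 0.276 for Abcc4 (0.124). Without reversal chow replicate 1, Slco1a4 (-2.0, adjusted p = 0.0202) and Abcg2 (1.23, adjusted p = 0.0275) passed. That fit called 2400 of 13221 genes, against 1451 of 13225 with all samples. Without reversal chow replicate 2, the array that stands apart, the Abcg2 difference was 0.54 (adjusted p = 0.149), and 634 of 13241 genes were called. Over all single arrays left out, the difference ranged from 0.54 to 1.23 for Abcg2 and from -2.0 to -1.32 for Slco1a4.

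Mice on HFD with CMPF were also compared with chow; these comparisons share the chow arrays with those of HFD. In the prevention model 0 of 8 passed, beside 0.0% of genes: Abcc3 differed by 0.56 ± 0.188 (adjusted p = 0.401), next to its 0.63 for HFD with vehicle. Under reversal 0 of 8 passed, beside 1.99% of genes. Slco1a4 differed by -1.36 ± 0.368 (adjusted p = 0.0740), with all CMPF samples (7.91 to 8.36) below all chow samples, and Slc22a7 by 0.92 ± 0.309 (adjusted p = 0.143), with all CMPF samples (9.99 to 10.36) above. Groups did not overlap for 2 of the 8, beside 18.4% of genes. Without reversal chow replicate 1 the Slco1a4 difference was -1.72, with an adjusted p of 0.0348. That fit called 263 of 13221 genes, against 263 of 13225 with all samples.

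The probe sets of Slco1b2 disagreed on the diet. When each of the 45037 probe sets was tested on its own, 2 of the 14 transporter probe sets fell with HFD in the prevention model, beside 2.64% of probe sets, and both belong to Slco1b2. In the difference of the HFD effect between models, the same pair passed, beside 4.58% of probe sets. Probe set 1427826_a_at read 8.23, 7.06 and 8.67 on chow and 4.92, 4.83 and 6.09 on HFD, a change of -2.71 ± 0.658 (adjusted p = 0.0460). Probe set 1452494_s_at read 12.50, 11.89 and 12.43 on chow and 11.19, 11.24 and 11.43 on HFD, a change of -0.98 ± 0.208 (adjusted p = 0.0310). In both, every HFD array lay below every chow array, whereas 1449394_at, which represents the gene in the gene-level fit, read 12.40, 12.37 and 12.35 on chow and 12.44, 12.25 and 12.52 on HFD. The stretch of transcript that each probe set reads is not given in the sources used here.

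These probe sets moved with the 3' to 5' index. Relations were computed for the 14 probe sets in both models, 28 in all. Over the 9 reversal samples, where the index varied within groups, 1427826_a_at gave a Pearson r with the index of -0.977 (two-sided exact permutation p, adjusted over the 28, of 0.00602) and a Spearman rho of -0.883 (adjusted exact permutation p = 0.0861). Without the 2 samples of index farthest from the median, r was -0.905. For 1452494_s_at r was -0.872 (adjusted exact permutation p = 0.0361), rho was -0.817 (adjusted exact permutation p = 0.151) and r without the 2 farthest samples was -0.717. For 1449394_at r was 0.04 (adjusted exact permutation p = 0.941) and rho 0.22 (adjusted exact permutation p = 0.906). Of the 28 relations, 5 had an adjusted exact permutation p under 0.05 by Pearson r, 3 in the prevention model and 2 in the reversal model. Slco1b2 gave 4 of them, and Abcc3 in the prevention model the other. By Spearman rho no relation passed, the lowest adjusted exact permutation p being 0.0861. In the prevention model r was -0.881 for 1427826_a_at and -0.912 for 1452494_s_at (adjusted exact permutation p = 0.0364 for each). Their rho was -0.571 (adjusted exact permutation p = 0.378 for each), and r without the 2 farthest samples was -0.449 and -0.609. Abcc3 had r = 0.868 there (adjusted exact permutation p = 0.0364), rho = 0.810 (0.152) and r = 0.813 without the 2 farthest samples. In the reversal model its r was -0.403 (0.550). The prevention chow samples lie apart from the rest on the index, so index and diet cannot be told apart in that model. With the index in the model, the HFD change in the prevention model was -1.14 for 1427826_a_at (adjusted p = 0.481) and -0.53 for 1452494_s_at (adjusted p = 0.347). Leaving out single arrays gave adjusted p-values from 0.0199 to 0.199 and from 0.00853 to 0.149; the calls were kept without chow replicate 2 and lost without each of the other 5 arrays of the comparison.

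CMPF against vehicle gave no call for any Slco1b2 probe set. The difference in the prevention model was 0.31 (CI -1.26 to 1.89) for 1427826_a_at and 0.20 (CI -0.30 to 0.70) for 1452494_s_at, with adjusted p-values of 0.974 and 0.939. For reversal, 1427826_a_at read 8.04, 5.95 and 6.60 with vehicle and 6.50, 5.32 and 8.07 with CMPF. The 2 arrays at 8.04 and 8.07 are those of lowest index in that model, at 1.55 and 1.66. Across the 17 samples, after subtracting each model's mean, 1427826_a_at and 1452494_s_at had an r of 0.95 with each other and of -0.06 and 0.07 with 1449394_at, as a description. For Slco2b1, 1433933_s_at and 1454777_at had an r of 0.68.

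**Figure D5:**
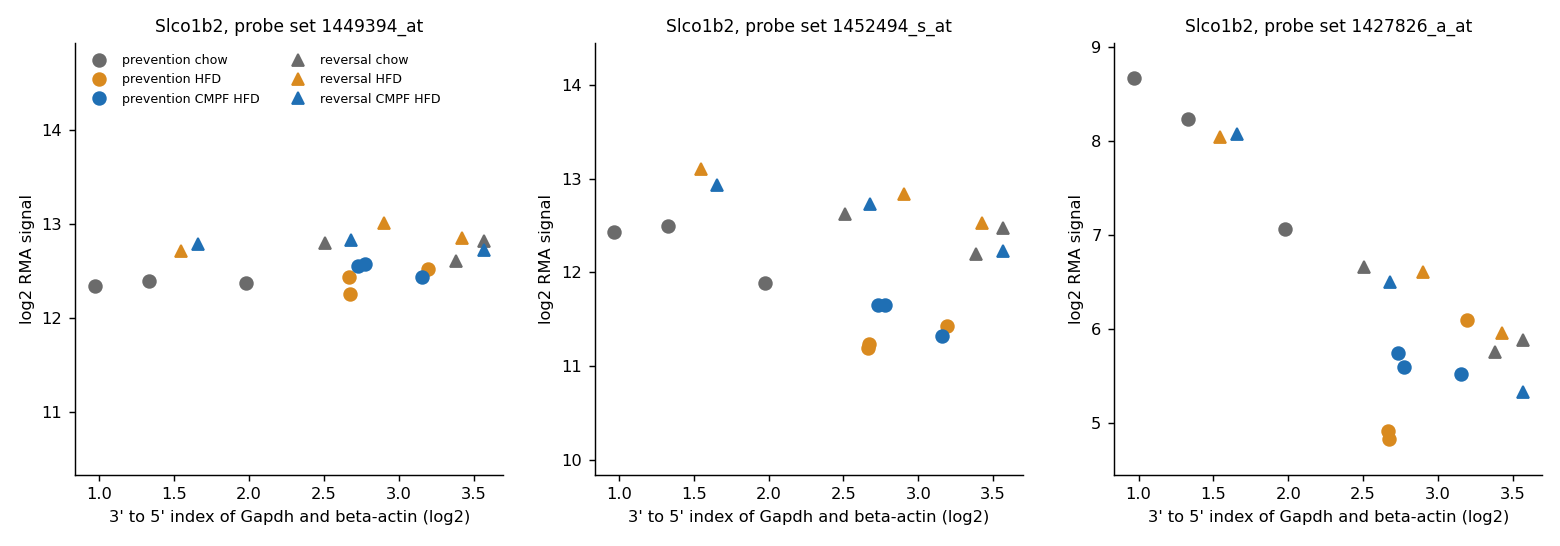
Log2 RMA signal of the well measured Slco1b2 probe sets plotted against the 3' to 5' index of the array, by model and group. In the reversal model 1427826_a_at falls along the index (r = -0.977 over 9 samples), and 1449394_at stays between 12.61 and 13.01.

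Other liver transporters were listed for comparison: 33 genes, of which 30 are on the array, 25 were tested and 19 were well measured. CMPF against vehicle gave 0 of 25 calls in each model. At an unadjusted p under 0.05 there were 2 of 25 in the prevention model, beside 7.98% of genes, and 4 of 25 in the reversal model, beside 4.79%. Slc16a1, the monocarboxylate carrier Mct1, differed by 0.82 ± 0.207 with CMPF in the prevention model (adjusted p = 0.328) and by -0.73 ± 0.185 in the reversal model (adjusted p = 0.389). HFD in the prevention model gave 0 higher and 3 lower of 25, beside 5.57% of genes called in either direction. Slc10a1, the sodium-dependent bile acid carrier Ntcp, fell from 12.07 ± 0.323 to 10.92 ± 0.204, by 1.16 on the log2 scale (adjusted p = 0.0120). Slco1a1, the neighbour of Slco1a4, fell from 11.57 ± 0.391 to 10.38 ± 0.309, by 1.19 (adjusted p = 0.0153), while the Slco1a4 difference was 0.65. Slc16a1 fell from 9.74 ± 0.250 to 8.25 ± 0.116, by 1.49 (adjusted p = 0.00628). With the index in the model, the difference was -1.19 for Slc16a1, which kept its call (adjusted p = 0.0450). It was -0.83 for Slc10a1 (0.110) and -0.97 for Slco1a1 (0.15), which did not. That fit called 17 of all 13225 genes. HFD in the reversal model gave 0 of 25; HFD with CMPF against chow gave 0 of 25 in the prevention model and 1 in the reversal model, Slc16a1 at -1.30 ± 0.185 (adjusted p = 0.00364).

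The listed regulators of transporter genes gave 0 of 10 calls for CMPF and for HFD in each model. Over all genes, the shares called were 0.0% and 0.0378% for CMPF and 5.57% and 2.45% for HFD, in the prevention and reversal model. These shares also stand beside the counts of the lists that follow. At an unadjusted p under 0.05, CMPF gave 1 and 2 of 10 regulators, beside 7.98% and 4.79% of genes. Nr1i2 (PXR), the receptor that turns on drug-handling genes, differed by 0.79 ± 0.167 with CMPF in the reversal model (adjusted p = 0.172), and Nr0b2 (SHP), a repressor in bile acid signalling, by 1.45 ± 0.322 in the prevention model (adjusted p = 0.252). Of 10 tested targets of these regulators, 0 passed for CMPF or HFD in either model. At an unadjusted p under 0.05, CMPF gave 3 of 10 targets in each model, beside 7.98% and 4.79% of genes. Among them, Gclc, of glutathione synthesis, differed by 0.96 ± 0.316 with CMPF in the prevention model (adjusted p = 0.475). Cyp3a11 differed by -0.36 ± 0.132 in the reversal model (adjusted p = 0.852). Of the carriers of anions in blood and cytosol, albumin (Alb) differed by 0.00 and -0.04 with CMPF and Fabp1 by 0.11 and -0.13, in the prevention and reversal model, with 0 of 3 called. Gsta3, a glutathione transferase of the cytosol, was called for HFD with CMPF against chow in the reversal model, at 1.97 ± 0.468 (adjusted p = 0.0465), next to 1.87 ± 0.468 for HFD with vehicle (adjusted p = 0.0515); the first call was lost under 13 of 19 alternatives. Of 5 tested scaffold genes that hold transporters at the membrane, 0 passed for CMPF or HFD in either model; Pdzk1 differed by 0.89 ± 0.236 with HFD in the reversal model (adjusted p = 0.0612).

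The genes whose pattern was most like each transporter were found by Pearson r over the 17 samples after subtracting each model's mean, as a description. They were Arfgef1 (r = 0.93) for Abcg2, Cyp2j9 (0.91) for Abcc2, Lxn (0.88) for Abcc3 and Wnt2 (0.82) for Abcc4. For the uptake genes they were Pus1 (0.83) for Slc22a7, Camk2d (0.80) for Slco1a4, Hs6st1 (0.84) for Slco1b2 and Vmac (0.83) for Slco2b1. No transporter was the nearest gene of another.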

How the data were processed

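The deposited values are log2 signals; the authors used Affymetrix Expression Console 1.1 and RMA, which corrects background, normalises by quantiles and summarises the probes of a probe set, per the submitters' processing notes. A Qiagen kit gave the RNA, of which 200 ng was labelled per array, per the labels. Of 45101 probe sets, 64 are controls; the annotation pairs 34945 with 1 symbol and 932 with several and does not list 9160. Of those with 1 symbol, 34741 matched the mouse gene table. The dimmest 40% of probe sets were dropped, and each gene took the values of its brightest probe set; 13225 genes were tested. The comparisons used limma 3.58.1 (R 4.3.3), in 1 linear model of the 6 group means (17 samples, 11 residual and 3.02 prior degrees of freedom), with Benjamini-Hochberg adjustment over all genes; intervals are 95%. Probe sets were also tested singly, without a filter. Exact permutation tests ran over all orders of the samples, and SciPy 1.17.1 gave the ranks. The code was tested on simulated data. Arrays give no depth; their number limits the precision.

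The transporters, the other gene lists and the tests were chosen with earlier results of these data known. Each transporter is named in every comparison of CMPF with vehicle and of HFD with chow; of the transporter, regulator, target, carrier and scaffold lists, genes past the threshold are named, and otherwise examples from the 3 of lowest p. Cell type markers are given as means of each list, apart from Stab2, which is also named. Alternatives were other filters, normalisations, samples and covariates, a replicate block, and leaving out arrays.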

Additional observations from a re-analysis of the deposited data

Results flagged for a closer look

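For 8 results the HFD effect differed between the models, by a test of the difference itself (reversal minus prevention, adjusted p under 0.05). Over all genes 11.0% passed this test, and over all probe sets tested singly 4.58%. Of the lists, 3 of 25 other transporters, 1 of 10 regulators, 1 of 3 carriers and 1 of 5 scaffold genes passed. Among cell type markers, 1 of 3 bile duct, 1 of 5 endothelial and 1 of 6 stellate cell genes also passed and are not among the 8. For Slco1b2 the difference was 3.48 ± 0.930 by probe set 1427826_a_at (adjusted p = 0.0492) and 1.38 ± 0.294 by 1452494_s_at (0.0318), against 0.08 ± 0.147 by 1449394_at. Among other transporters it was 1.27 ± 0.255 for Slc10a1 (0.0191), 1.33 ± 0.301 for Slco1a1 (0.0251) and 0.92 ± 0.262 for Slc16a1 (0.0406). It was also 2.49 ± 0.661 for the glutathione transferase Gsta3 (0.0336), 1.11 ± 0.286 for the canalicular scaffold protein radixin, Rdx (0.0312), and 0.58 ± 0.161 for the nuclear receptor partner Rxra (0.0366). With the index in the model, all 8 missed the threshold. The gene-level fit with the index called 0 of all 13225 genes, so the loss is not particular to those named. The differences were then 1.33 and 0.75 for the Slco1b2 probe sets, 0.82 for Slc10a1, 1.02 for Slco1a1 and 0.50 for Slc16a1. They were 0.78 for Gsta3, 0.48 for Rdx and 0.63 for Rxra. Of 19 alternatives, 12 lost the call of 1427826_a_at and 9 that of 1452494_s_at. Of 23 alternatives, 4 lost the call of Slc10a1, 5 that of Slco1a1 and 15 that of Slc16a1. The same count was 14 for Gsta3, 13 for Rdx and 14 for Rxra. Without prevention chow replicate 1 or 3, the gene-level fit called 0 genes. The mean index was 1.43 on chow and 2.84 on HFD in the prevention model, and 3.15 and 2.62 in the reversal model.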

How the results depend on the processing

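For CMPF against vehicle, 0 of 8 transporters were called under each of the 19 alternatives run in each model. Of 302 values of single transporters, 280 kept their direction and 22 did not; the lowest adjusted p was 0.254. Reversed values under another normalisation were -0.0097 (quantile) and -0.0372 (cyclic loess) for Abcc2 and -0.00098 (cyclic loess) for Slco1b2 in the prevention model, and 0.0162 (quantile) and 0.0088 (cyclic loess) for Abcg2 in the reversal model. Leaving out single arrays, or the near-identical pair together, gave ranges across 0 in the prevention model for Slc22a7 (-0.656 to 0.390), Slco1a4 (-0.954 to 0.311), Slco2b1 (-0.254 to 0.0762), Abcc2 (-0.0525 to 0.274) and Abcc3 (-0.171 to 0.0282). In the reversal model it did so for Slc22a7 (-0.0245 to 0.369), Abcc2 (-0.348 to 0.215) and Abcg2 (-0.128 to 0.0661). Without reversal HFD replicate 1 and CMPF replicate 3 together, chosen after seeing the data, Slc22a7 was at -0.0700.

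For HFD against chow in the prevention model, the count of 1 was 0 with no filter on dim probe sets, with the index as a covariate, with an intensity trend, with the replicate block, in a fit on the 2 groups compared and with every probe set tested. It was 2 where probe sets of a gene were averaged, beside 657 of 13225 genes, and ranged from 0 to 1 without single arrays. The added call was Slco1b2 at -1.22 (adjusted p = 0.0337). That average takes in 1427826_a_at (-2.71) and 1452494_s_at (-0.98) along with 1449394_at (0.03). With the index as a covariate Slco1b2 was at -0.0096, Slco2b1 at -0.0421 and Abcc2 at -0.356; Slco1b2 ranged from -0.0249 to 0.110 without single arrays. In the reversal model Slco1b2 was at -0.0802 (cyclic loess), and Abcc4 at 0.0269 (quantile) and 0.0399 (cyclic loess), with -0.135 to 0.0338 without single arrays. HFD with CMPF against chow in the reversal model gave 0 to 1 calls without single arrays, and the difference of the HFD effect 0 to 2; the latter gave 1 with the stricter filter, averaged probe sets, quantile normalisation or cyclic loess. The cause was not tested. Over all genes, HFD against chow called 8 to 1626 genes in the prevention model (736 as reported) and 0 to 575 in the reversal model (324). CMPF called 0 to 36 (0 as reported) and 0 to 17 (5), HFD with CMPF against chow 0 to 6 (0) and 8 to 385 (263), and the difference of the HFD effect 0 to 2400 (1451).

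The labels do not say that a replicate number pairs animals, so the numbers were not taken as pairs. Correlations of the residuals of same-numbered samples, after removal of group means, ranged from -0.345 to 0.441 over 16 pairs. A range over so few pairs that spans both signs does not decide whether numbers pair animals. With the replicate block, Abcc3 missed the threshold for HFD in the prevention model (adjusted p = 0.0642); no other call of the 8 changed. Of the other genes named, Stab2 for HFD in the prevention model (0.0972), Gsta3 for HFD with CMPF in the reversal model (0.0563), and Slc16a1 (0.0600) and Rxra (0.0717) for the difference of the HFD effect, missed it.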
